A study of Macaca fascicularis with 2 samples.

Results

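The antioxidant enzymes described here are the superoxide dismutases SOD1, SOD2 and SOD3, catalase (CAT), the glutathione peroxidases GPX1, GPX3 and GPX4, and the peroxiredoxins PRDX1, PRDX4 and PRDX6. They were chosen by gene symbol, and 9 of the 10 were matched among the 28845 features of the deposited matrices. PRDX6 was not analysed here. The levels of the 9 genes were followed across the germ stages and somatic cell classes of cynomolgus monkey (Macaca fascicularis) testis. Testis placed in the abdomen by surgery on one side (UAT), a model of undescended testis, was set against the scrotal testis of the other side (CST). Both gave 1 droplet-based 3' single-cell RNA library (10x Genomics), so no difference has a replicate check, no test was made, and differences between libraries and between testis positions cannot be told apart. The number of animals, their age and the time after surgery were not given in the sources used here.

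Superoxide dismutases turn superoxide into hydrogen peroxide, in the cytosol (SOD1), the mitochondrial matrix (SOD2) and the extracellular space (SOD3). Hydrogen peroxide is then removed by catalase in peroxisomes, by glutathione peroxidases at the expense of glutathione, and by peroxiredoxins, which are recharged largely through thioredoxin. GPX4 also reduces lipid peroxides within membranes, and in mammalian sperm it is known as a structural protein of the mitochondrial capsule. The testis works below core body temperature, and heat from an abdominal position has long been linked to oxidative stress and loss of germ cells.

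The UAT library held 12564 barcodes and 111047299 unique molecular identifiers (UMIs), and the CST library 15952 barcodes and 197225937 UMIs. The median barcode had 7193.5 UMIs in UAT and 5438.5 in CST, and 50 barcode sequences occurred in both libraries. After filtering, 11131 UAT and 13201 CST cells were clustered without using the 9 genes, and clusters were named from marker genes, always as "like" a cell type because no annotation by the authors was used. Levels are UMIs summed over the cells of a class, per 1000000 UMIs of that class (CPM), and intervals are 95% and cover counting error only. In CST, 570 undifferentiated spermatogonia-like, 456 differentiating spermatogonia-like, 2946 late spermatocyte-like, 2352 round spermatid-like and 3136 elongating spermatid-like cells were found. In UAT, undifferentiated spermatogonia-like cells numbered 280, differentiating spermatogonia-like cells 12, late spermatocyte-like cells 3, and both spermatid-like classes 0. Conversely, 804 Sertoli-like and 253 Leydig-like cells were found in UAT, against 27 and 2 in CST. Rankings of classes below leave out those with fewer than 50 cells in that library. There were 7 classes with at least 50 cells in both libraries. These were undifferentiated spermatogonia-like, peritubular myoid-like, stromal-like, pericyte or vascular smooth muscle-like (pericyte-like below), endothelial-like, macrophage-like and T or NK-like cells. Of their marker genes, 12 of 15 reached 20 CPM in UAT undifferentiated spermatogonia-like cells and 15 of 15 in CST, and all or all but 1 did so in the other 6 classes of both libraries.

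RNA of other cells differed between the libraries inside these classes. The 14 elongating spermatid markers summed to 11.2 to 55.4 CPM over the 7 classes in UAT, against 4045 to 16089 CPM in CST. From genes that the somatic classes should lack, free RNA was estimated at 4.01% of the UMIs in UAT and 4.25% in CST, and at 14.1% in the CST T or NK-like class. Its make-up was assumed to be that of all barcodes of the library summed, and was not measured apart from cells. Mitochondrially encoded transcripts took 4.50% to 8.73% of UMIs over these classes in UAT, against 3.28% to 6.02% in CST. Subtraction of the estimated free RNA, and removal of mitochondrial and ribosomal protein genes, were among the alternatives run for each member. Beyond these, the part of these differences in the results below was not tested.

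**Figure D1:**
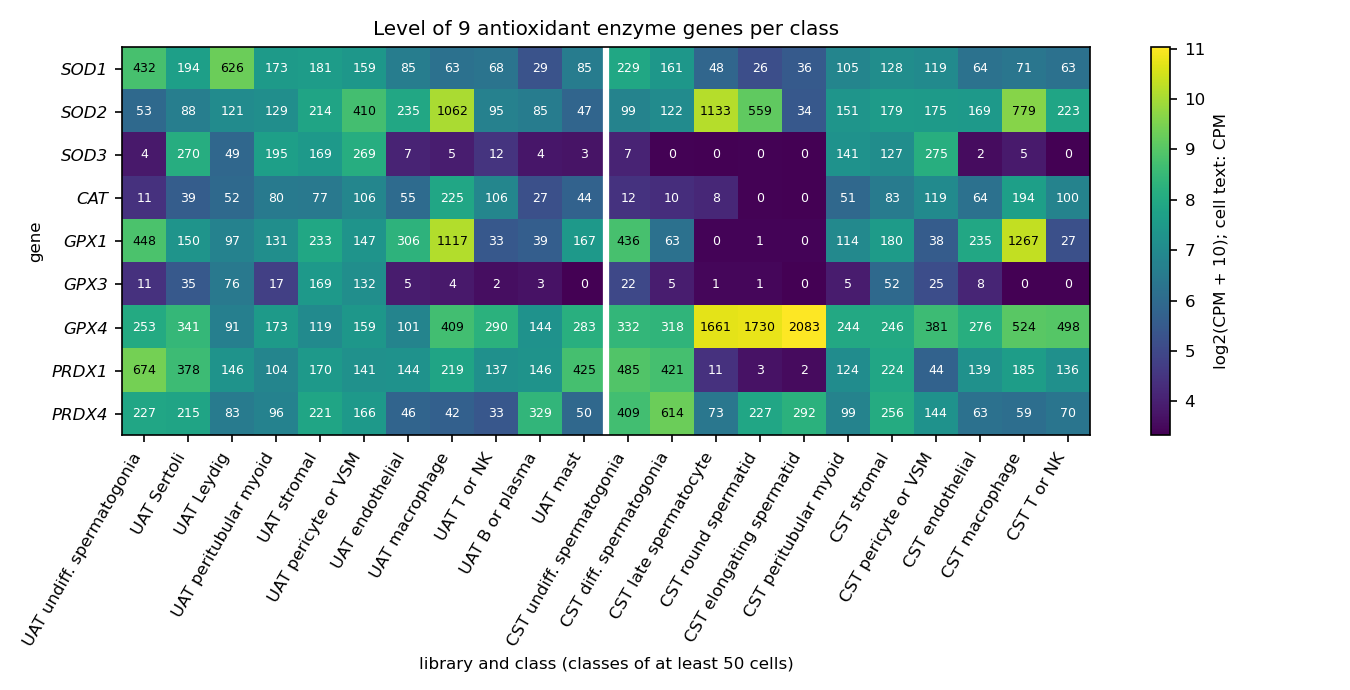
Heat map of the level of each of the 9 antioxidant genes (rows, CPM of summed UMIs, on a log color scale) in the classes with at least 50 cells (columns), with UAT classes on the left and CST classes on the right. SOD2 is brightest in the CST late spermatocyte-like class, at 1133 CPM, GPX4 in the CST elongating spermatid-like class, at 2083 CPM, and GPX1 in macrophage-like cells of both libraries, at 1117 CPM in UAT and 1267 CPM in CST.

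The 9 genes gave 54 pairs of gene and class with at least 20 CPM in one of the libraries or both. In 8 of these pairs the level was at least 1.5-fold higher in UAT, and in 9 at least 1.5-fold lower. Over all genes in the same classes, 10.7% of pairs were that much higher and 19.7% that much lower, and the members' counts are to be read against these shares. The counting interval of the ratio lay above 1 in 19 pairs and below 1 in 18. The share of all genes with such intervals is not given here, so these counts cannot be read as particular to the members. GPX4 was lower in UAT in all 7 classes, whereas SOD1 was higher in 6, in 4 of them beyond counting error, and SOD2 differed in direction between classes. The counts below are given class by class and then gene by gene.

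Undifferentiated spermatogonia-like cells, the stem and early progenitor cells of the germ line, had 1 of 7 measured members at least 1.5-fold higher in UAT and 3 lower, beside 6.47% and 11.8% of all genes. The peritubular myoid-like class, contractile cells that surround the tubules, had 2 of 8 members higher and 0 lower, beside 7.27% and 15.7%. Stromal-like cells had 1 of 9 higher and 1 lower, beside 4.77% and 15.3%. The higher members were SOD1 and CAT in the myoid-like class and GPX3 in the stromal-like class, where GPX4 was the lower one. Pericyte-like cells, which wrap small vessels, had 4 of 9 higher and 1 lower, beside 17.7% and 35.7%. Endothelial-like cells had 0 of 7 higher and 1 lower, beside 6.94% and 14.0%. The macrophage-like class had 0 of 7 past the threshold either way, beside 14.3% and 17.3%, and the T or NK-like class had 0 of 7 higher and 3 lower, beside 17.9% and 27.4%. The median log2 ratio over all genes lay between -0.09 and -0.01 in 6 classes and at -0.23 in the pericyte-like class, where the members' median was 0.39. UAT stromal-like cells lay in clusters 0 and 1 and most CST ones in cluster 2, and UAT myoid-like cells lay in cluster 3 and most CST ones in cluster 24, so the ratios within these 2 classes also compare clusters.

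**Figure D2:**
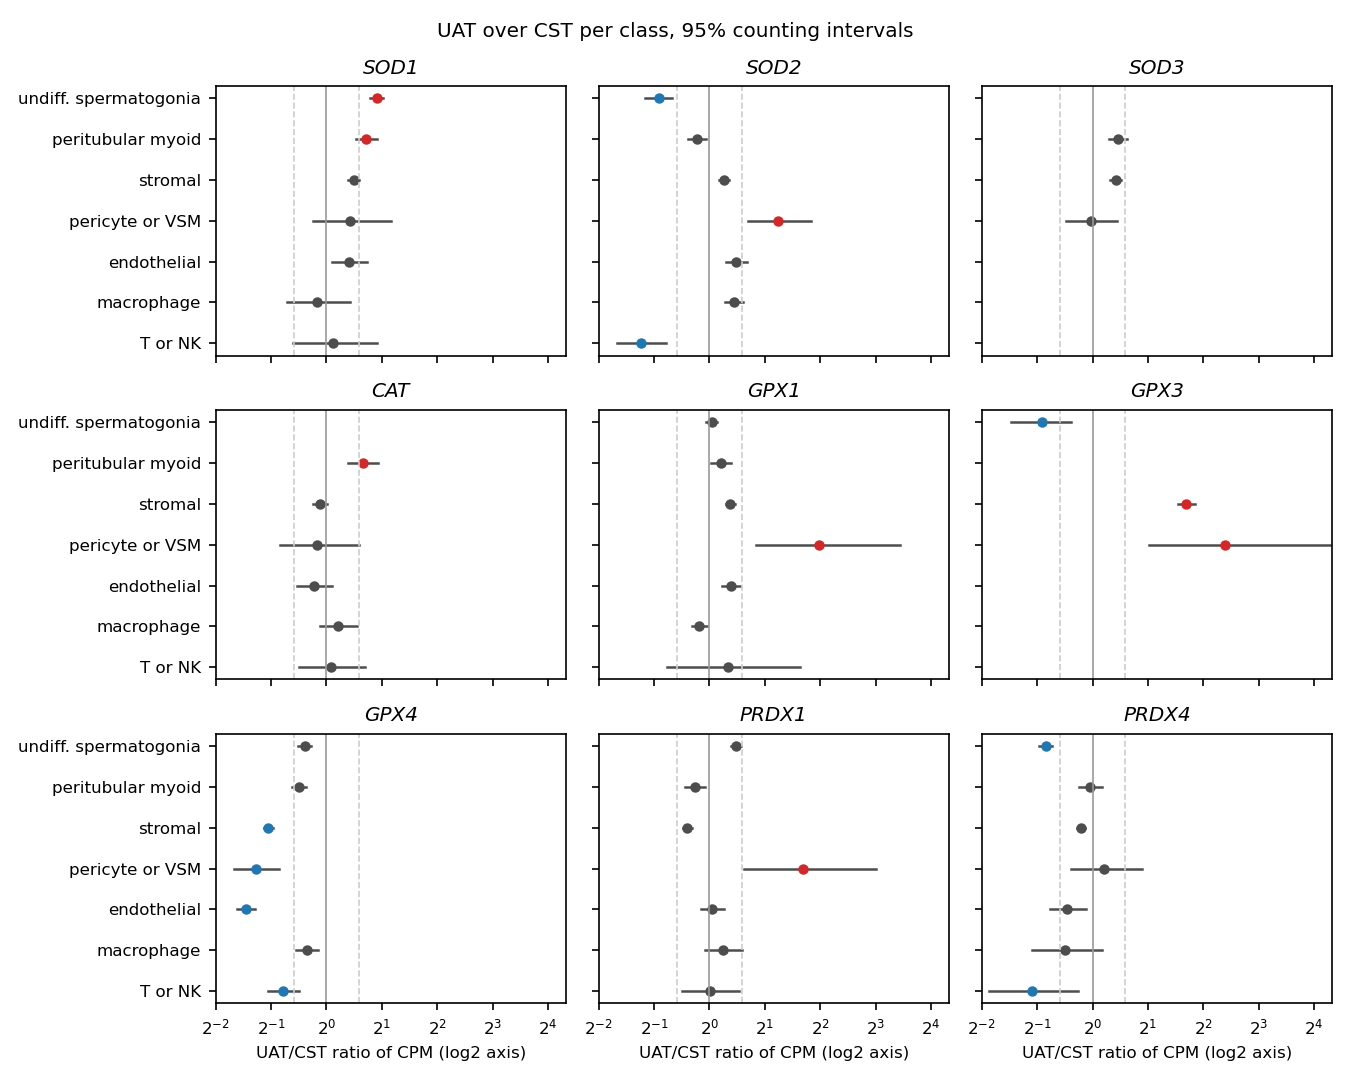
Ratio of the UAT level to the CST level (horizontal log axis) of each antioxidant gene in the 7 classes compared, 1 panel a gene, with 95% counting intervals and dashed lines at 1.5-fold either way. Points are red from 1.5-fold higher and blue from 1.5-fold lower. GPX4 points lie left of 1 in all 7 classes, between 0.367 and 0.781. GPX3 is at 3.23 in stromal-like cells and at 5.26 in pericyte-like cells, the latter on 4 CST UMIs.

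SOD1, the copper and zinc superoxide dismutase of the cytosol, was highest in steroid-producing and early germ cells. In UAT it reached 626 CPM in Leydig-like cells and 432 CPM in undifferentiated spermatogonia-like cells, the first exceeding the second by 1.45-fold (1.36 to 1.54). Sertoli-like cells followed at 194 CPM, stromal-like cells at 181 CPM and myoid-like cells at 173 CPM, and the interval of the ratio of stromal-like to myoid-like cells included 1. The lowest UAT level was 28.9 CPM in B or plasma-like cells. In CST the highest level was 229 CPM in undifferentiated spermatogonia-like cells, and Leydig-like cells were too few to give a level.

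Between the libraries, SOD1 in undifferentiated spermatogonia-like cells was at 432 CPM in UAT and 229 CPM in CST, a ratio of 1.88 (1.74 to 2.04). In peritubular myoid-like cells it was at 173 CPM in UAT and 105 CPM in CST, a ratio of 1.65 (1.45 to 1.88). Both ratios stayed past 1.5-fold under every alternative run, over ranges of 1.70 to 1.97 and 1.62 to 1.82. Stromal-like cells gave 181 CPM in UAT and 128 CPM in CST (ratio 1.41, 1.32 to 1.51), and endothelial-like cells 85.3 and 64.4 CPM (ratio 1.33, 1.07 to 1.65). SOD1 thus had intervals above 1 in 4 classes and below 1 in 0, with no share of all genes to set beside this. Macrophage-like cells, at 63.5 CPM in UAT and 71.1 CPM in CST, gave a ratio of 0.893 (0.613 to 1.35), too wide to place on either side of 1.

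SOD2, the manganese superoxide dismutase of the mitochondrial matrix, was highest in macrophage-like cells in UAT and in late spermatocyte-like cells in CST. The 3 late spermatocyte-like cells of UAT were too few to give a level. In UAT, SOD2 stood at 1062 CPM in macrophage-like cells, 2.59-fold (2.41 to 2.78) above pericyte-like cells at 410.2 CPM, and at 235 CPM in endothelial-like cells. In CST the late spermatocyte-like class was highest at 1133 CPM, 1.45-fold (1.30 to 1.63) above macrophage-like cells at 779 CPM. Round spermatid-like cells had 559 CPM and elongating spermatid-like cells 33.9 CPM, the lowest CST level.

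The direction of SOD2 between the libraries depended on the class. It was lower in UAT in undifferentiated spermatogonia-like cells, at 52.7 CPM against 99.4 CPM in CST (ratio 0.530, 0.446 to 0.628). It was also lower in the UAT T or NK-like class, at 94.6 CPM against 223 CPM in CST (ratio 0.425, 0.314 to 0.580). In pericyte-like cells it was higher in UAT, at 410.2 CPM against 175 CPM in CST (ratio 2.34, 1.61 to 3.55). These 3 ratios are past 1.5-fold in opposite directions, and with 1 library a position the difference between them was not tested. The pericyte-like value rests on 907 UMIs in UAT and 28 in CST, 5 UAT cells held 33.0% of the UAT UMIs, and with each cell thinned to 1000 UMIs the ratio was 1.32. The undifferentiated spermatogonia-like ratio was 0.251 by the mean of per-cell CPM and 0.695 under a marker gate on single cells. Macrophage markers summed to 102 CPM in UAT and 12.5 CPM in CST pericyte-like cells, and their part in the result was not tested. In CST, free RNA was estimated to give 20.9% of the SOD2 level of undifferentiated spermatogonia-like cells and 34.9% of that of T or NK-like cells.

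Smaller SOD2 ratios were found elsewhere. The ratio was 1.40 (1.23 to 1.60) in endothelial-like cells, at 235 CPM in UAT and 169 CPM in CST. In macrophage-like cells it was 1.36 (1.22 to 1.53), at 1062 CPM in UAT and 779 CPM in CST, and without doublet removal it was 0.910. In stromal-like cells it was 1.197 (1.13 to 1.27), at 214 CPM in UAT and 179 CPM in CST. None of these 3 classes reached 1.5-fold. Within UAT stromal-like cells, the 2 main clusters differed, with 271 CPM in cluster 0 and 145 CPM in cluster 1.

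SOD3, the secreted superoxide dismutase, was a gene of supporting and contractile cells. In UAT, Sertoli-like cells had 270.4 CPM and pericyte-like cells 269 CPM, a ratio of 1.01 (0.921 to 1.10) that does not set them apart. Peritubular myoid-like cells had 195 CPM and stromal-like cells 169 CPM. All germ classes and the endothelial and immune classes lay at 12.4 CPM or below in both libraries. In CST, pericyte-like cells led the classes of at least 50 cells with 275 CPM. The 27 CST Sertoli-like cells had 370 CPM (234 to 555), on 23 UMIs. The CST germ classes after undifferentiated spermatogonia-like cells lay at 0.357 CPM or below. Between the libraries the ratio was 1.38 (1.24 to 1.55) in myoid-like cells, 1.33 (1.24 to 1.43) in stromal-like cells and 0.976 (0.718 to 1.36) in pericyte-like cells. SOD3 thus had 0 of 3 measured classes past 1.5-fold.

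CAT, the peroxisomal enzyme that splits hydrogen peroxide, was highest in macrophage-like cells of both libraries, with 225 CPM in UAT and 194 CPM in CST. Pericyte-like cells followed in UAT at 106 CPM and could not be told from T or NK-like cells, also at 106 CPM. The CST order of macrophage-like over pericyte-like cells (1.63-fold, 0.983 to 2.85) was within counting error. Germ cells had little of it, with 11.2 CPM in UAT and 12.0 CPM in CST undifferentiated spermatogonia-like cells, and 0.327 CPM or less in the CST spermatid-like classes. The ratio past 1.5-fold was in peritubular myoid-like cells, with 80.2 CPM in UAT and 50.7 CPM in CST (ratio 1.58, 1.31 to 1.91). It was 1.47 when each library was clustered alone. The other 5 measured classes gave intervals that included 1.

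GPX1, the widespread cytosolic glutathione peroxidase, followed macrophage-like and early germ cells. In UAT it reached 1117 CPM in macrophage-like cells, 2.49-fold (2.36 to 2.63) above undifferentiated spermatogonia-like cells at 448 CPM. In CST the same order held, with 1267 CPM in macrophage-like cells, 2.91-fold (2.63 to 3.21) above undifferentiated spermatogonia-like cells at 436 CPM. T or NK-like cells were low in both libraries, at 33.5 CPM in UAT and 26.6 CPM in CST. The 3 CST classes from late spermatocyte-like to elongating spermatid-like cells lay between 0.444 and 0.515 CPM.

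GPX1 ratios between the libraries were mostly small. Undifferentiated spermatogonia-like cells gave 1.03 (0.961 to 1.10), so that the germ cells present in both testes had levels within counting error of each other. Stromal-like and endothelial-like cells each gave 1.30, with intervals of 1.22 to 1.37 and 1.17 to 1.46. Macrophage-like cells gave 0.881 (0.806 to 0.965). The pericyte-like class was past 1.5-fold, with 147 CPM in UAT and 37.5 CPM in CST (ratio 3.93, 1.79 to 10.8), but the CST level rests on 6 UMIs, and the ratio ranged from 2.48 to 7.85 over the alternatives.

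GPX3, the secreted glutathione peroxidase best known from plasma and kidney, had its highest level in stromal-like cells of both libraries, but was not confined to them. In UAT it had 169 CPM in stromal-like cells, 132 CPM in pericyte-like cells and 76.4 CPM in Leydig-like cells. Sertoli-like cells of UAT had 34.6 CPM. In CST, stromal-like cells had 52.2 CPM and undifferentiated spermatogonia-like cells 21.7 CPM. The CST pericyte-like value of 25.0 CPM (6.82 to 64.05) rests on 4 UMIs and could not be ordered against either. The stromal-like ratio was 3.23 (2.92 to 3.59), and it ranged from 3.17 to 3.76 over the alternatives. GPX3 was not used for the clustering and was among the 10 leading genes of cluster 1. UAT stromal-like cells were split between cluster 0 at 110 CPM and cluster 1 at 240.5 CPM, both above the main CST cluster 2 at 46.3 CPM. After thinning each cell to 1000 UMIs, 15.4% of UAT and 4.58% of CST stromal-like cells kept a GPX3 UMI (51.9% and 14.5% before thinning). Endothelial-like cells, where the gene was low, kept one in 0.259% of UAT and 0.304% of CST cells (3.58% and 2.11% before thinning). The median cell had 7323 UMIs in UAT and 4269.5 in CST in the stromal-like class, and 6877.5 and 3223 in the endothelial-like class.

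Another 2 classes passed 1.5-fold for GPX3 on few UMIs. Pericyte-like cells had 132 CPM in UAT and 25.0 CPM in CST (ratio 5.26, 2.03 to 19.4), on 4 CST UMIs, and the ratio ranged from 2.07 to 22.4 over the alternatives. Undifferentiated spermatogonia-like cells had 11.5 CPM in UAT and 21.7 CPM in CST (ratio 0.528, 0.361 to 0.765). Free RNA was estimated to give 59.7% of the UAT level there, and the ratio ranged from 0.223 to 0.951 over the alternatives. In myoid-like cells GPX3 stood at 17.4 CPM in UAT and 5.07 CPM in CST, below the minimum level.

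GPX4, the phospholipid hydroperoxide glutathione peroxidase, was highest in meiotic and haploid cells. In CST it had 1661 CPM in late spermatocyte-like, 1730.0 CPM in round spermatid-like and 2083 CPM in elongating spermatid-like cells. The late spermatocyte-like class lay 3.17-fold (2.78 to 3.64) above macrophage-like cells, the next class of at least 50 cells, at 524 CPM. The 27 CST Sertoli-like cells had 964 CPM (736 to 1241), on 60 UMIs. In UAT, which had almost no meiotic or haploid cells, macrophage-like cells led with 409 CPM, Sertoli-like cells had 341 CPM and Leydig-like cells the least at 91.4 CPM. Counts at the 3' end do not tell the cytosolic, mitochondrial and nuclear GPX4 transcripts apart.

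In each of the 7 classes GPX4 was lower in UAT, with an interval below 1. How many of all genes did the same is not given here. Undifferentiated spermatogonia-like cells had 253 CPM in UAT and 332 CPM in CST (ratio 0.761, 0.701 to 0.827), and by the mean of per-cell CPM the ratio was 0.403. Myoid-like cells had 173 CPM in UAT and 244 CPM in CST (0.708, 0.647 to 0.776), and macrophage-like cells 409 and 524 CPM (0.781, 0.680 to 0.902). The other 4 classes were past 1.5-fold. Stromal-like cells had 119 CPM in UAT and 246 CPM in CST (0.483, 0.457 to 0.511). Endothelial-like cells had 101 CPM in UAT and 276 CPM in CST (0.367, 0.328 to 0.411), lower in UAT in cluster 4 (100.1 against 332 CPM) and in cluster 14 (102 against 183 CPM). Pericyte-like cells gave 0.416 (0.316 to 0.556) and the T or NK-like class 0.583 (0.482 to 0.708).

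The free RNA profile of a library was taken as the summed UMIs of all its barcodes, so it is the library average. GPX4 had 1597 CPM in that profile in CST, against 173 CPM in UAT. Free RNA was estimated to give 12.6% to 45.1% of the CST level in the 7 classes. After it was taken out, the UAT to CST ratio was 0.915 in undifferentiated spermatogonia-like, 0.876 in myoid-like and 0.874 in macrophage-like cells, and 0.941 in the T or NK-like class. It was 0.646 in stromal-like, 0.554 in pericyte-like and 0.459 in endothelial-like cells. With this assumed profile all 7 ratios were below 1, and 3 of the 4 classes were past 1.5-fold. The subtracted ratios have no interval. How much of the remaining difference comes from RNA of other cells was not tested.

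PRDX1, a cytosolic peroxiredoxin, was highest in undifferentiated spermatogonia-like cells of both libraries, with 674 CPM in UAT and 485 CPM in CST. The ratio there was 1.39 (1.31 to 1.48). Mast-like cells with 425 CPM and Sertoli-like cells with 378 CPM followed in UAT, and the interval of their ratio included 1. Stromal-like cells were lower in UAT, at 170.1 CPM against 224 CPM in CST (0.758, 0.718 to 0.801), but short of 1.5-fold. Pericyte-like cells were past it at 141 CPM in UAT and 43.8 CPM in CST (3.21, 1.54 to 8.06), on 7 CST UMIs, and the ratio ranged from 2.20 to 16.6 over the alternatives. Endothelial-like cells gave a ratio of 1.03, and T or NK-like cells had 136.9 CPM in UAT and 136.2 CPM in CST.

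PRDX4, the peroxiredoxin of the endoplasmic reticulum, was highest in B or plasma-like cells in UAT and in spermatogonia-like cells in CST. In UAT, B or plasma-like cells had 329 CPM, 1.45-fold (1.31 to 1.59) above undifferentiated spermatogonia-like cells at 227 CPM. Those could not be told from stromal-like cells at 221 CPM. In CST, differentiating spermatogonia-like cells had 614 CPM and undifferentiated spermatogonia-like cells 409 CPM. Elongating spermatid-like cells followed at 292 CPM and stromal-like cells at 256 CPM. Undifferentiated spermatogonia-like cells were lower in UAT than in CST, by a ratio of 0.555 (0.511 to 0.602), with 0.491 to 0.570 over the alternatives. T or NK-like cells had 32.8 CPM in UAT and 69.8 CPM in CST (0.469, 0.274 to 0.830), where free RNA was estimated at 41.7% of the CST level. Without doublet removal that ratio was 0.713, short of 1.5-fold. Stromal-like cells gave 0.864 (0.822 to 0.909) and endothelial-like cells 0.729 (0.585 to 0.917).

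Along the CST germ line the 9 genes took separate courses, and 21 steps between neighbouring stages could be measured. Of these, 4 were at least 1.5-fold higher in the later stage and 9 at least 1.5-fold lower, beside 27.8% and 45.6% of all genes. From undifferentiated to differentiating spermatogonia-like cells, 1 of 7 members was higher and 2 lower (28.5% and 24.4% of all genes). GPX1 had 436 and 63.2 CPM in that stage order, a ratio of later to earlier of 0.145, and GPX3 a ratio of 0.247. PRDX4 had 409 and 614 CPM in the same order, which is right at the threshold of 1.5-fold (interval 1.41 to 1.59), and it was past it in 8 of 12 alternatives.

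At the step to late spermatocyte-like cells, 2 of 6 members were higher and 4 lower, beside 31.0% and 52.4% of all genes. SOD2 was 9.32-fold (8.64 to 10.1) higher than in differentiating spermatogonia-like cells, and GPX4 5.22-fold (4.98 to 5.47) higher. PRDX1 had 11.5 CPM, a ratio of 0.0273, and GPX1 a ratio of 0.00702. SOD1 had a ratio of 0.301 and PRDX4 one of 0.120. SOD2 and GPX4 thus went one way at this step and the other 4 measured members the other. The median log2 ratio of all genes at this step was -0.59 with the pseudocount of 10 CPM, and the median ratio without it was 0.603. Divided by that median ratio, the SOD2 and GPX4 ratios were 15.5 and 8.65.

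From late spermatocyte-like to round spermatid-like cells, 1 of 4 members was higher and 2 lower, beside 34.1% and 42.9% of all genes. PRDX4 was 3.09-fold higher, at 227 CPM against 73.4 CPM in late spermatocyte-like cells. SOD2 had a ratio of 0.493 and SOD1 one of 0.533, and the SOD1 ratio was 1.04 at a finer clustering. GPX4 gave 1.04. The 3 round spermatid-like clusters differed, with SOD2 at 752, 569 and 292 CPM in clusters 5, 15 and 16.

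From round to elongating spermatid-like cells, 0 of 4 members was higher and 1 lower, beside 14.6% and 68.8% of all genes. SOD2 was at 0.0606 of its round spermatid-like level. GPX4 (1.204), PRDX4 (1.29) and SOD1 (1.38) were higher by less than 1.5-fold. The 14 elongating markers alone took 370687 CPM of the elongating spermatid-like class, and the median ratio of all genes was 0.338. Divided by that median, the members' ratios were 3.57 for GPX4, 3.81 for PRDX4, 4.09 for SOD1 and 0.179 for SOD2. Early spermatocyte-like cells, named so at a finer clustering, did not form a class of their own at the clustering used. There, clusters 37 (203 cells) and 32 (268 cells) had SOD2 at 124 and 615 CPM, GPX4 at 171 and 1194 CPM and PRDX1 at 240.02 and 30.0 CPM.

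**Figure D3:**
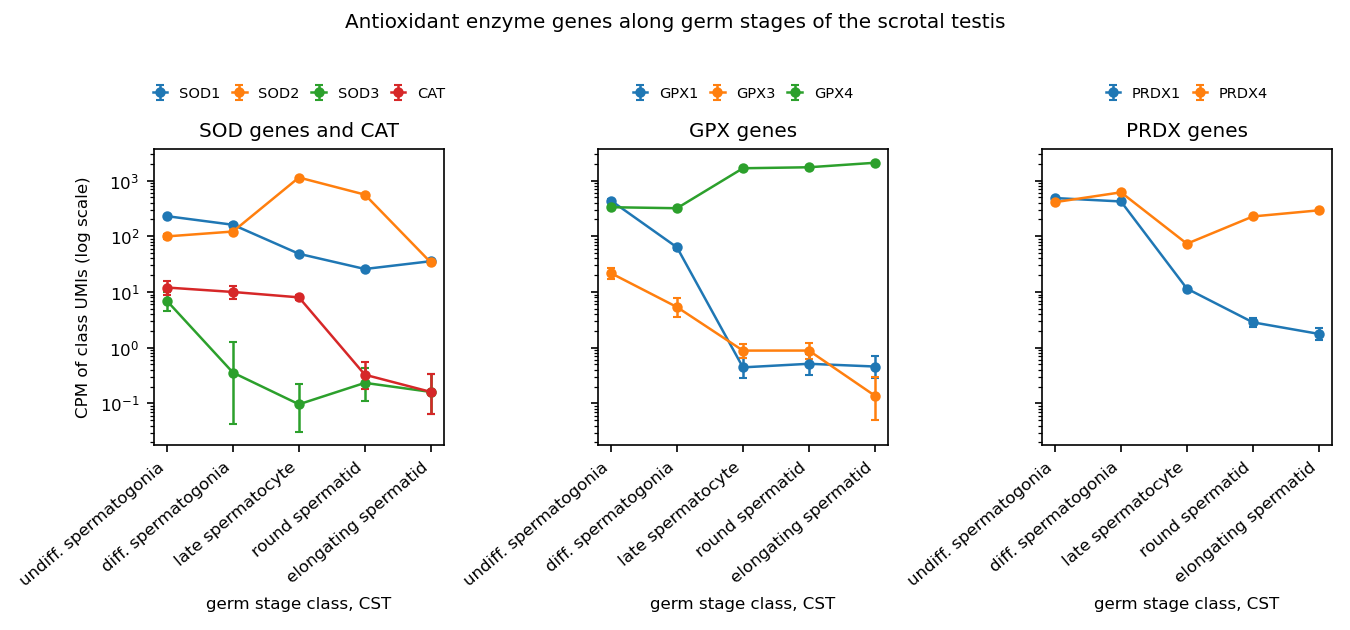
Level of each of the 9 antioxidant genes (CPM, log axis, with 95% Poisson bars) along the 5 CST germ stages from undifferentiated spermatogonia-like to elongating spermatid-like cells. SOD2 peaks in late spermatocyte-like cells at 1133 CPM, GPX4 is highest in elongating spermatid-like cells at 2083 CPM, and GPX1 is at 0.444 CPM in late spermatocyte-like cells.

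Around the members, 8 further lists of 96 genes covered other peroxidases, the thioredoxin system, glutathione synthesis and transferases, the targets of the stress regulator NRF2, metal handling, selenoprotein synthesis and oxidant sources; 82 of the genes were matched. In undifferentiated spermatogonia-like cells 4 of 46 measured were at least 1.5-fold higher in UAT and 6 lower, beside 6.47% and 11.8% of all genes. In myoid-like cells these were 5 and 8 of 50 (7.27% and 15.7% of all genes), and in stromal-like cells 2 and 5 of 50 (4.77% and 15.3%). Pericyte-like cells had 13 and 10 of 52 (17.7% and 35.7%) and endothelial-like cells 2 and 13 of 50 (6.94% and 14.0%). Macrophage-like cells had 6 and 3 of 44 (14.3% and 17.3%), and the T or NK-like class 3 and 11 of 40 (17.9% and 27.4%). GSTM3, a glutathione transferase, was lower in UAT in 6 of the 7 classes by a fold past 1.5, for example at 302 CPM against 768 CPM in CST undifferentiated spermatogonia-like cells and at 138 CPM against 626 CPM in endothelial-like cells. Like GPX4, it was at high levels in the CST germ line, with 8435 CPM in late spermatocyte-like cells. Ratios after subtraction of free RNA are given here for members only, and its part in the GSTM3 ratios was not tested. FTH1, the ferritin heavy chain that stores iron, was higher in UAT macrophage-like cells, at 2549 CPM against 1374 CPM in CST. AOX1, an aldehyde oxidase that can produce superoxide, was higher in UAT stromal-like cells, at 176 CPM against 99.6 CPM in CST.

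The same lists were followed along the CST germ line. At the step to late spermatocyte-like cells, 11 of 41 measured genes were higher and 28 lower, beside 31.0% and 52.4% of all genes, and of the 7 in glutathione synthesis and recycling 0 were higher and 6 lower. GSR, the enzyme that regenerates glutathione, had 0.405 CPM in late spermatocyte-like cells against 82.5 CPM in differentiating spermatogonia-like cells. TXN, the thioredoxin that serves peroxiredoxins, had 3.22 CPM against 135 CPM. In round spermatid-like cells, 9 of 29 were higher than in late spermatocyte-like cells and 12 lower, beside 34.1% and 42.9% of all genes. The listed gene TXNDC2 was also a marker used to name round spermatid-like cells, so its level there is not independent of the naming. The testis-specific thioredoxin TXNDC8 had 634 CPM in round spermatid-like cells against 53.5 CPM in late spermatocyte-like cells, and GLRX2, a mitochondrial glutaredoxin, had 316 CPM against 10.4 CPM. PRDX5 had 562 CPM in elongating spermatid-like cells against 103 CPM in round spermatid-like cells. At the first step 6 of 46 genes were higher and 16 lower, beside 28.5% and 24.4% of all genes, and at the last 6 of 26 were higher and 15 lower, beside 14.6% and 68.8%.

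For each member, the 3 genes with the most similar course over 22 class points (11 in each library) were named by Pearson's r of log2(CPM + 10), as a description across classes that share libraries. For SOD1 they were BTG3 (0.881), SMS (0.878) and DDB1 (0.878), and for SOD2 ANKRD13A (0.812), RNF181 (0.789) and LACTB (0.782). For SOD3 they were MAP1B (0.963), VASN (0.956) and GATA4 (0.937), for CAT TRIM38 (0.927), CCNL1 (0.922) and BLVRB (0.919), and for GPX1 IFNGR2 (0.913), RNF130 (0.893) and PLD3 (0.888). GPX3 was closest to SLC7A2 (0.844), AOX1 (0.836) and NDN (0.808), and GPX4 to ATP6V1F (0.941), DUSP28 (0.931) and MRPL41 (0.930). PRDX1 was closest to PHB (0.9499), APRT (0.947) and C16H17orf89 (0.936), and PRDX4 to ERGIC3 (0.782), HDLBP (0.748) and AAAS (0.680). SOD3 had the closest partner of the 9 members, and PRDX4 the least close.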

How the data were processed

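The authors deposited UMI counts of genes by barcodes, as whole numbers with no normalization, for 1 UAT and 1 CST library, per the file headers. Cell Ranger is at version 5.0.0 in the matrix headers and at 3.0.1 in the submitters' processing notes, which give the build mm10. The feature names are macaque symbols, so the build is not settled and no coordinates or sequences are given. Per the labels' protocols, tissue was minced, digested with collagenase and dispase and loaded on 10x 3' v3 chemistry.

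Cells with at least 500 genes were kept (12352 UAT, 15001 CST), and simulated-doublet scores removed 0.8% per 1000 barcodes (9.89% of UAT, 12.0% of CST). Both libraries were clustered together on 2000 variable genes without the members (40 components, 15 neighbours, Leiden resolution 1). Python 3.11.15, scipy 1.17.1, scikit-learn 1.9.0 and leidenalg 0.10.2 were used. Clusters were named from 18 marker lists, and doubtful ones stayed unnamed (158 UAT and 919 CST cells). The rule that haemoglobin genes do not count against a name was set after the files were seen.

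UMIs were summed per class and library, never tested over cells. Ratios have exact conditional binomial 95% intervals and levels exact Poisson ones, and both cover counting error only. The ratio intervals alone were tried on simulated data, for the stromal-like and T or NK-like classes. Those counts were drawn with the counting error that the intervals assume, so the trial cannot show how they cover UMIs that vary between cells. A ratio was counted where the higher library reached 20 CPM, as past 1.5-fold or not. Named were the members, the 3 genes of most similar course, and examples of listed genes of at least 30 UMIs with an interval wholly past 1.5-fold. Not all listed genes that met this rule were named. Among those left out were MAOA in macrophage-like cells (UAT to CST ratio 3.22, 1.82 to 6.28) and HMOX2 in stromal-like cells (0.459, 0.423 to 0.499). The members and lists were chosen with earlier results of these data known.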

Additional observations from a re-analysis of the deposited data

Results flagged for a closer look

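SOD2 had UAT to CST ratios whose whole intervals lay past 1.5-fold in opposite directions between classes. GPX3 also had ratios past 1.5-fold in both directions, but its undifferentiated spermatogonia-like interval of 0.361 to 0.765 was not wholly past it. The pericyte-like (pericyte or vascular smooth muscle) ratio was 2.34, at 410.2 CPM in UAT and 175 CPM in CST. In undifferentiated spermatogonia-like cells it was 0.530, at 52.7 CPM in UAT and 99.4 CPM in CST. For the T or NK-like class the ratio was 0.425, at 94.6 CPM in UAT and 223 CPM in CST. Each class had 1 library a position, so the difference between these ratios was not tested. The undifferentiated spermatogonia-like ratio ranged from 0.251 to 0.695 over the alternatives, and the T or NK-like one from 0.409 to 0.517. The pericyte-like ratio ranged from 1.32 to 2.89 and rests on 28 CST UMIs.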

How the results depend on the processing

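With 1 library a position, no library could be left out, and depth and counting error limit what can be said of the pericyte-like, macrophage-like and T or NK-like classes of CST, with 71, 91 and 141 cells. No paired analysis was possible because each position has 1 library and the result comes from no test. The count of 8 pairs of gene and class at least 1.5-fold higher in UAT was 15 without doublet removal (68 pairs in 8 classes), 30 with a marker gate on single cells (104 pairs in 13 classes) and 5 at a 2-fold threshold. The count of 9 lower pairs was 22 with the gate and 5 at 2-fold. The count of 4 germ steps higher in the later stage was 8 at a clustering resolution of 2, which had 6 stages. The wider gates and clusterings compared more classes or stages, and the cause of the other shifts was not tested. The remaining alternatives left each count within 1.5 times. Of the 30 ratios past 1.5-fold, 1 crossed to the other side of 1, SOD1 in round spermatid-like over late spermatocyte-like cells, at 1.04 with resolution 2 against 0.533; the cause was not tested. Of the 45 ratios short of 1.5-fold, 19 crossed 1 under at least 1 alternative, SOD2 in macrophage-like cells (0.910 without doublet removal, 1.36 as reported) among them. Of the other values of single ratios, 706 stayed within their counting interval and 211 moved beyond it. Undifferentiated spermatogonia-like cells were not compared at resolution 0.5 or with each library clustered alone. The class with the highest level changed under some alternatives for SOD3, GPX4 and PRDX1 in UAT and for SOD1, SOD3, PRDX1 and PRDX4 in CST; for PRDX1 the differentiating spermatogonia-like class took the place of the undifferentiated one.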
